A study of Homo sapiens with 9 samples.

Results

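The EGF receptor ligands are small growth factors that cells make and release to signal to themselves and their neighbours. 5 of their genes were followed here: EREG (epiregulin), AREG (amphiregulin), BTC (betacellulin), HBEGF (heparin-binding EGF-like growth factor) and TGFA (transforming growth factor alpha). They were chosen by name, with earlier results of these data known. EREG, AREG, HBEGF and TGFA were read from the interval that best matched the gene's hg19 position and BTC from an interval of its length. The ligands are thus 5 of 55527 intervals in all. All 5 reached 1 TPM in 3 or more libraries and were therefore among the 15011 intervals tested.

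The libraries come from MDA-MB-231, a human breast cancer line that lacks the oestrogen and progesterone receptors, and form 3 groups of 3 RNA-seq libraries: cells with hairpin shCTDP1-#1, cells with hairpin shCTDP1-#2, and cells with the control hairpin shScr. All 3 groups carried a lentiviral hairpin, took up virus made in 293FT cells during 48 h with 10 µg/mL polybrene, and were selected with puromycin. CTDP1 encodes a phosphatase that acts on the tail of RNA polymerase II. The knockdown therefore rests on a pool of infected cells of a single line, and in such bulk RNA fewer cells of a kind and less RNA per cell cannot be told apart.

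Each ligand is made as a precursor anchored in the cell membrane, and metalloproteases of the ADAM family cut it to release the growth factor. The released ligand binds the EGF receptor on the same or a nearby cell and switches on the RAS to ERK cascade, among others. Amphiregulin and TGF-alpha bind the EGF receptor alone, while epiregulin, betacellulin and HB-EGF also bind its relative ERBB4. MDA-MB-231 cells carry an abundant EGF receptor and activating mutations in the cascade downstream of it.

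The files gave a transcript abundance (TPM, a share of all transcripts in the library, scaled for transcript length) for each interval, with no gene name and no read count, so the depth behind a value is unknown. The hairpins lowered their target: CTDP1 had 2.46, 2.62 and 2.46 TPM with shCTDP1-#1 and 3.77, 3.42 and 4.1 TPM with shCTDP1-#2, against 13.06, 12.38 and 12.01 TPM with shScr. The line's markers were as follows: VIM (vimentin, a mesenchymal filament protein) stood between 1421.53 and 3640.79 TPM, while CDH1, ESR1 and PGR reached at most 1.08, 0.13 and 0.27 TPM. EPCAM, an epithelial marker, lay between 6.16 and 12.87 TPM, and GATA3, a luminal transcription factor, between 1.11 and 4.59 TPM. VIM fell with shCTDP1-#1 (log2 change -1.27) and with shCTDP1-#2 (-0.79), as did GATA3 (-1.20 and -0.76), and EPCAM rose with shCTDP1-#1 (0.48). EPCAM was not called with shCTDP1-#2 (-0.09, limma adjusted p = 0.646), and its shCTDP1-#1 libraries overlapped those of shScr. CDH1, ESR1 and PGR lay below the filter and were not tested. VIM and GATA3 were thus lower with both hairpins, as were 16.5% of tested intervals. The part of these markers in the ligand results was not tested. Mitochondrial transcripts made up 4.47% of the first shScr library and between 1.12% and 2.28% of the other 8. Rows with a nonzero value numbered 19688 to 20208 in the shScr libraries and 21714 to 22636 in those of the CTDP1 hairpins. The part of this difference in the ligand results was not tested.

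EREG spans chr4:75230860-75254468 and AREG chr4:75310851-75320726 on the forward strand, and HBEGF spans chr5:139712428-139726216 on the reverse strand (hg19). BTC and TGFA were not found on their chromosomes in these files. TGFA was read from an interval of 106914 bases on the patch sequence HG953_PATCH, which matched its position in that sequence's numbering. BTC was read from an interval of 49928 bases on HG706_PATCH, found by its length, which equals that of BTC in GENCODE v29. The one other interval on that sequence has the length of AC239584.1 in GENCODE v29 (36898 bases), and its start lies as far from that of BTC (192175 bases) as it does there. BTC is the only ligand of the 5 that was not placed by its hg19 position.

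The 250 bases before the start of EREG, AREG and HBEGF are shown, for the ligand with the largest change, the one that moved in opposite directions and the most abundant one, from RefSeq (GRCh38.p14), each on its gene's own strand. Capitals mark the motifs searched for on both strands: the TATA box (TATAAA), the cyclic AMP response element (TGACGTCA), the AP-1 site (TGANTCA), the CCAAT box (CCAAT), the GC box (GGGCGG) and the TEAD site (GGAATG). The windows are chr4:74364895-74365144 for EREG, chr4:74444886-74445135 for AREG and chr5:140346604-140346853 for HBEGF.
EREG: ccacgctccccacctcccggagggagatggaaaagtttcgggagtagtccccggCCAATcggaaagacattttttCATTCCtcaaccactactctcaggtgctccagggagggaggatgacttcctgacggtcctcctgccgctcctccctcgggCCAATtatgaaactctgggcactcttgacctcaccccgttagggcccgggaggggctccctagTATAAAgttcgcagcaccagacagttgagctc
AREG: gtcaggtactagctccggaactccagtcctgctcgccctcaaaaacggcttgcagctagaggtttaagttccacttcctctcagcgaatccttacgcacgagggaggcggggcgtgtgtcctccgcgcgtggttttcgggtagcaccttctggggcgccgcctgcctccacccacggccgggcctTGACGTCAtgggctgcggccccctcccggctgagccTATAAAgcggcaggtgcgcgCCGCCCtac
HBEGF: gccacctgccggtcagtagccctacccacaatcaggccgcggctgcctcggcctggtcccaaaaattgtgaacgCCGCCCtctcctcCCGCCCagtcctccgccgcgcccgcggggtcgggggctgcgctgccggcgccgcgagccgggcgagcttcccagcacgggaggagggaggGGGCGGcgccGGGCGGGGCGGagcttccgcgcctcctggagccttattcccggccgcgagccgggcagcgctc
EREG and AREG, neighbours on chromosome 4, both hold a TATA box, 32 to 27 bases before the EREG start and 29 to 24 bases before the AREG start, and 10.7% of 35116 such windows hold one. AREG also holds a cyclic AMP response element, 65 to 58 bases before its start, found in 1.65% of windows. A GC box lies on its opposite strand, 9 to 4 bases before the AREG start. EREG holds 2 CCAAT boxes (32% of windows hold any) and a TEAD site on the opposite strand (11.9%). HBEGF has neither a TATA box nor a CCAAT box in this window, and holds 5 GC boxes, 2 of which overlap by 1 base; 42.6% of windows hold any. A match of letters does not show that a factor binds there.

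HBEGF, which encodes a ligand that binds heparan sulfate and also serves as the diphtheria toxin receptor, was the most abundant of the 5 with either CTDP1 hairpin and with shScr. It had 163.68, 172.99 and 168.42 TPM with shCTDP1-#1, 118.66, 111.03 and 110.37 TPM with shCTDP1-#2, and 65.1, 64.73 and 63.64 TPM with shScr. The 3 groups did not overlap, and both knockdown groups lay above the control. On the log2(TPM + 1) scale HBEGF rose by 1.37 with shCTDP1-#1 (SE 0.04, limma adjusted p = 2.36e-09) and by 0.80 with shCTDP1-#2 (SE 0.04, adjusted p = 7.68e-08). The ratios of mean TPM were 2.61 and 1.76.

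EREG, which encodes a ligand with weak receptor affinity but lasting signalling, showed the largest change of the 5 with each hairpin. Its levels were 9.19, 9.15 and 9.57 TPM with shCTDP1-#1, 6.53, 5.44 and 5.63 TPM with shCTDP1-#2, and 2.19, 2.52 and 1.98 TPM with shScr. Every library of a knockdown group exceeded every control library, and shCTDP1-#1 exceeded shCTDP1-#2. EREG rose by 1.68 on the log2(TPM + 1) scale with shCTDP1-#1 (SE 0.11, adjusted p = 3.42e-07) and by 1.09 with shCTDP1-#2 (SE 0.11, adjusted p = 8.37e-06). The added 1 TPM shrinks these changes, as the control level is low, and the ratios of mean TPM were 4.17 and 2.63. Of all tested intervals, 97.7% had a smaller absolute change with shCTDP1-#1 and 91.2% with shCTDP1-#2.

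BTC, a ligand first isolated from pancreatic beta-cell tumours, was the least abundant. It had 2.17, 2.68 and 2.53 TPM with shCTDP1-#1, 3.11, 2.64 and 3.35 TPM with shCTDP1-#2, and 1.37, 1.7 and 1.07 TPM with shScr. Both knockdown groups lay above the control, while the knockdown groups overlapped each other. BTC rose by 0.55 with shCTDP1-#1 (SE 0.15, adjusted p = 0.00743) and by 0.77 with shCTDP1-#2 (SE 0.15, adjusted p = 0.000943). At such low levels the added 1 TPM shrinks the log2 change, and the ratios of mean TPM were 1.78 and 2.20.

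AREG, a ligand of the mammary gland that oestrogen induces in normal breast, moved in opposite directions with the 2 hairpins. Its levels were 64.35, 65.57 and 67.29 TPM with shCTDP1-#1, 34.48, 37.28 and 36.35 TPM with shCTDP1-#2, and 42.34, 42.26 and 41.25 TPM with shScr. No groups overlapped: the control lay between the knockdown groups. AREG rose by 0.64 with shCTDP1-#1 (SE 0.05, adjusted p = 9.43e-07) and fell by 0.21 with shCTDP1-#2 (SE 0.05, adjusted p = 0.00222). The fall with shCTDP1-#2 was larger, -0.29 and -0.35, after upper-quartile and median-of-ratios scaling. 815 of the tested intervals (5.43%) were called in opposite directions with the 2 hairpins. An interval of nearly the length of AREG, chr4:75480629-75490486, was listed at 0 TPM in all 9 libraries. Whether reads that fit both intervals were counted to AREG was not tested, and adding the 2 intervals leaves the AREG values as given.

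TGFA, a ligand that many epithelial tumours make for themselves, was the one ligand that was lower with both hairpins. It had 28.92, 32.18 and 30.32 TPM with shCTDP1-#1, 46.67, 45.99 and 43.62 TPM with shCTDP1-#2, and 50.22, 50.82 and 49.3 TPM with shScr. The groups did not overlap. TGFA fell by 0.70 with shCTDP1-#1 (SE 0.05, adjusted p = 1.21e-06) and by 0.14 with shCTDP1-#2 (SE 0.05, adjusted p = 0.0403). The call with shCTDP1-#2 was not stable. It was lost, with an adjusted p of 0.0502, without shCTDP1-#1 replicate 3, and with 0.0616 and 0.134 without shCTDP1-#2 replicate 2 or replicate 3. It was also lost without shScr replicate 1, replicate 2 or replicate 3 (adjusted p = 0.0845, 0.104 and 0.0612), although the log2 change stayed between -0.16 and -0.11. After upper-quartile and median-of-ratios scaling the change was -0.21 and -0.27.

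**Figure D1:**
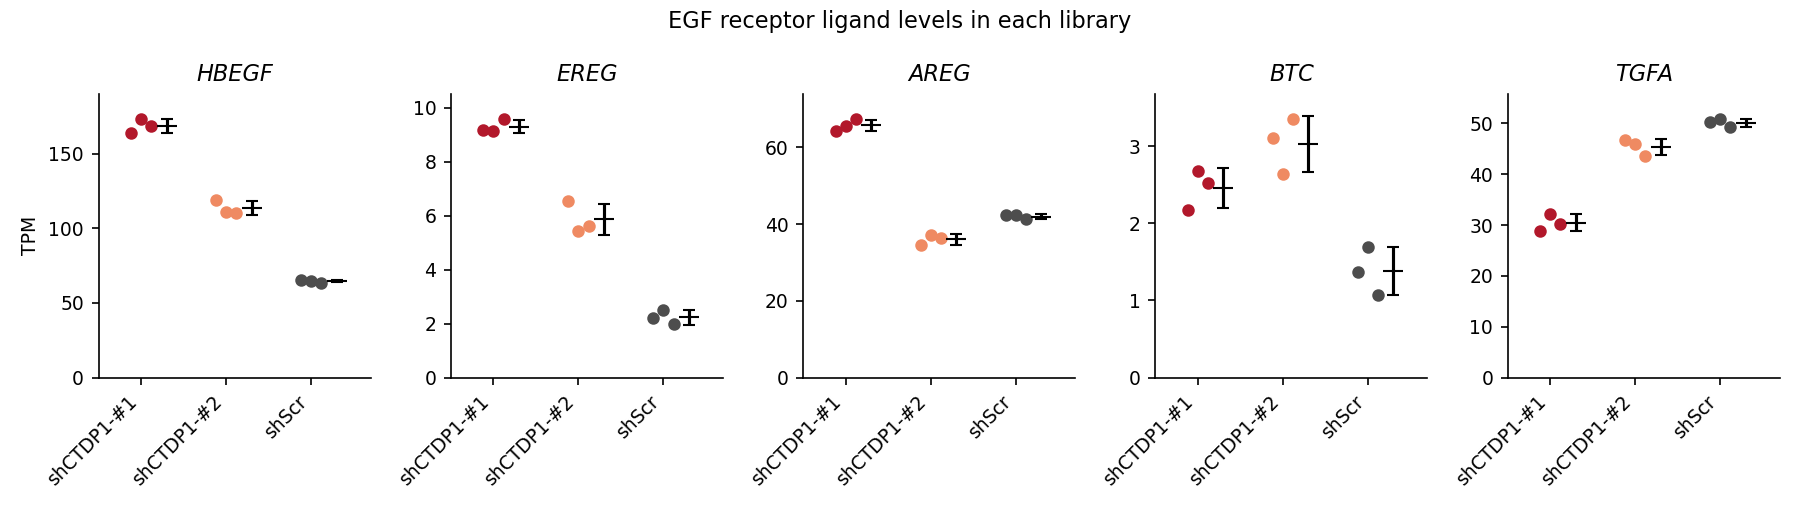
Level of each ligand (TPM, linear axis from 0, one panel per gene) in the 3 libraries of shCTDP1-#1, shCTDP1-#2 and shScr. Points are libraries and the bars give the mean and SD; HBEGF, EREG and BTC lie above the control with both hairpins, AREG with shCTDP1-#1 alone, and TGFA lies below it.

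With shCTDP1-#1, 4 of the 5 ligands rose and 1 fell, where 63.1% of tested intervals were called, 35.4% higher and 27.7% lower. With shCTDP1-#2, 3 rose and 2 fell, where 64% were called, 39.5% higher and 24.6% lower. Library values did not overlap between the hairpin group and shScr for any of the 5 ligands with either hairpin, nor for 67.8% of tested intervals with shCTDP1-#1 and 67.9% with shCTDP1-#2. On the log2(TPM + 1) scale, EREG and HBEGF had a called change of 1 or more with shCTDP1-#1, as did 7.22% of tested intervals. With shCTDP1-#2 EREG alone of the 5 did, as did 8.44%. That count depends on the added 1 TPM and on the scaling. With shCTDP1-#2 the ratio of mean TPM of BTC was 2.20, and the EREG change was 0.98 after median-of-ratios scaling. The median log2 change of the 5 was 0.64 and 0.77, beside 0.07 and 0.13 for all tested intervals. With shCTDP1-#2 the higher calls made up 61.6% of all calls as deposited and 50.3% after median-of-ratios scaling; all 5 ligands kept their direction and their call under both scalings. The comparisons share the 3 shScr libraries. HBEGF, EREG and BTC rose with both hairpins, as did 26.4% of tested intervals. These 3 are also those that bind ERBB4 as well as the EGF receptor, a grouping made after the values were seen. ERBB4 itself lay between 0.01 and 0.23 TPM, and its part in these changes was not tested.

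**Figure D2:**
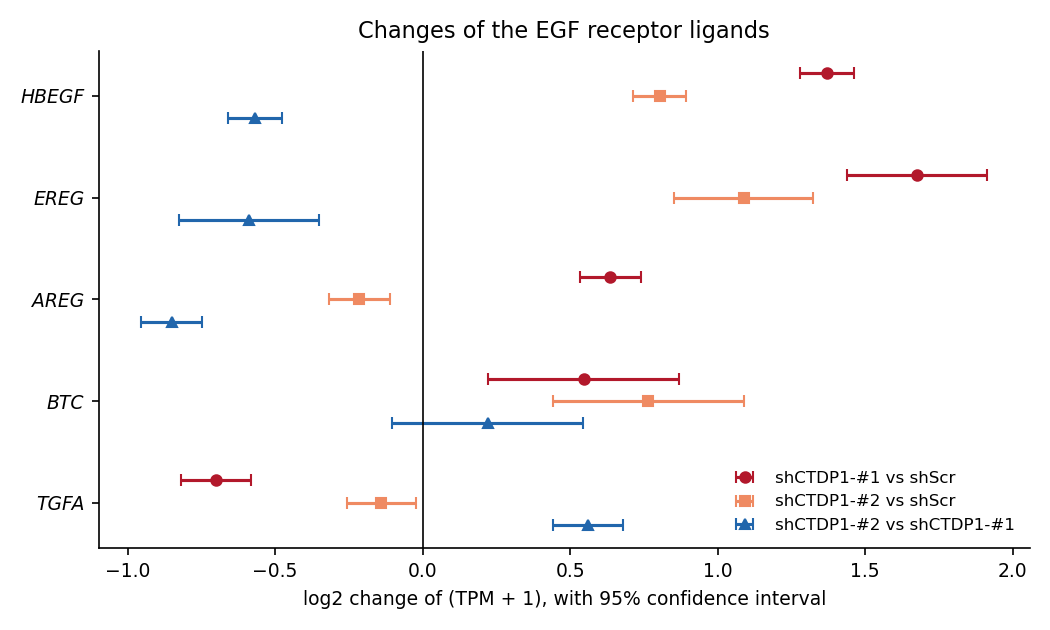
Log2 change of (TPM + 1) of each ligand, with its 95% confidence interval, for shCTDP1-#1 against shScr, shCTDP1-#2 against shScr and shCTDP1-#2 against shCTDP1-#1. EREG has the largest change against shScr with each hairpin, and AREG lies on opposite sides of 0 with the 2 hairpins.

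**Figure D3:**
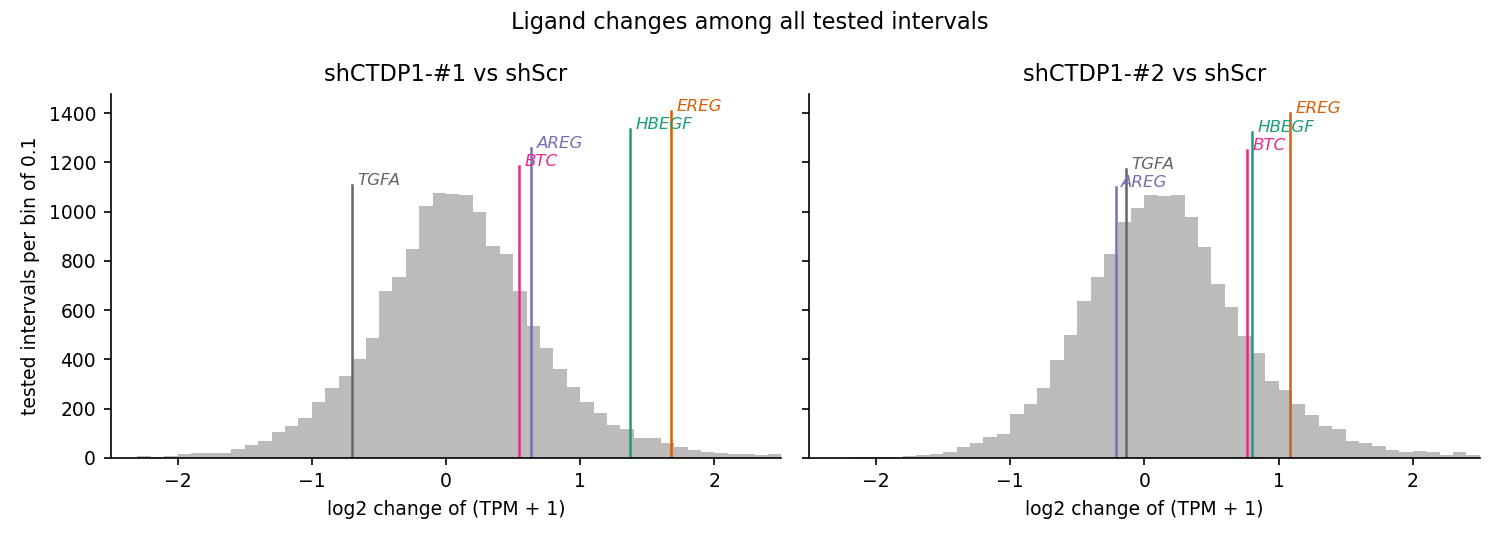
Number of tested intervals per bin of log2 change of (TPM + 1) for shCTDP1-#1 and shCTDP1-#2, each against shScr (15011 intervals; the axis is limited to -2.5 to 2.5), with lines at the 5 ligands. EREG and HBEGF stand in the upper tail with shCTDP1-#1, and AREG and TGFA lie near the centre with shCTDP1-#2.

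Compared directly, the hairpins differed in 4 of the 5 ligands, where 50.2% of tested intervals were called, 30.2% higher and 20% lower with shCTDP1-#2. EREG, AREG, HBEGF and TGFA were thus called in all 3 comparisons, as were 25.7% of tested intervals. Library values of these 4 did not overlap between the hairpins, and nor did those of 58% of tested intervals. HBEGF was lower with shCTDP1-#2 than with shCTDP1-#1 (log2 change -0.57, 95% interval -0.66 to -0.48, adjusted p = 1.82e-06). EREG was lower as well (-0.59, -0.83 to -0.35, adjusted p = 0.00101). AREG showed the widest gap (-0.85, -0.95 to -0.75, adjusted p = 2.91e-07). TGFA was higher with shCTDP1-#2 (0.56, 0.44 to 0.68, adjusted p = 1.18e-05), so that for these 4 the shCTDP1-#1 libraries lay farther from the control. The difference in BTC was 0.22 (-0.10 to 0.54, adjusted p = 0.237), which did not pass. CTDP1 itself was higher with shCTDP1-#2 than with shCTDP1-#1 (0.44, adjusted p = 0.00362), and the part of that difference in the ligand results was not tested.

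The make-up of the ligand pool also differed between groups. The 5 levels summed to 276.3 ± 7.3 TPM with shCTDP1-#1, 203.7 ± 5.2 TPM with shCTDP1-#2 and 160.2 ± 2.6 TPM with shScr (SD, n = 3 each). HBEGF made up 60.9% ± 0.34 of that sum with shCTDP1-#1, 55.6% ± 0.92 with shCTDP1-#2 and 40.3% ± 0.28 with shScr. TGFA made up 11.02% ± 0.32 with shCTDP1-#1, 22.3% ± 0.42 with shCTDP1-#2 and 31.3% ± 0.12 with shScr. The shares of both genes did not overlap between groups, nor did those of AREG and EREG. Those of BTC overlapped between shCTDP1-#1 and shScr. AREG held 23.8% ± 0.52 with shCTDP1-#1, 17.7% ± 1.1 with shCTDP1-#2 and 26.2% ± 0.10 with shScr. HBEGF was thus the largest component in each group. The shares within a library depend on one another, so these are descriptions without a test.

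**Figure D4:**
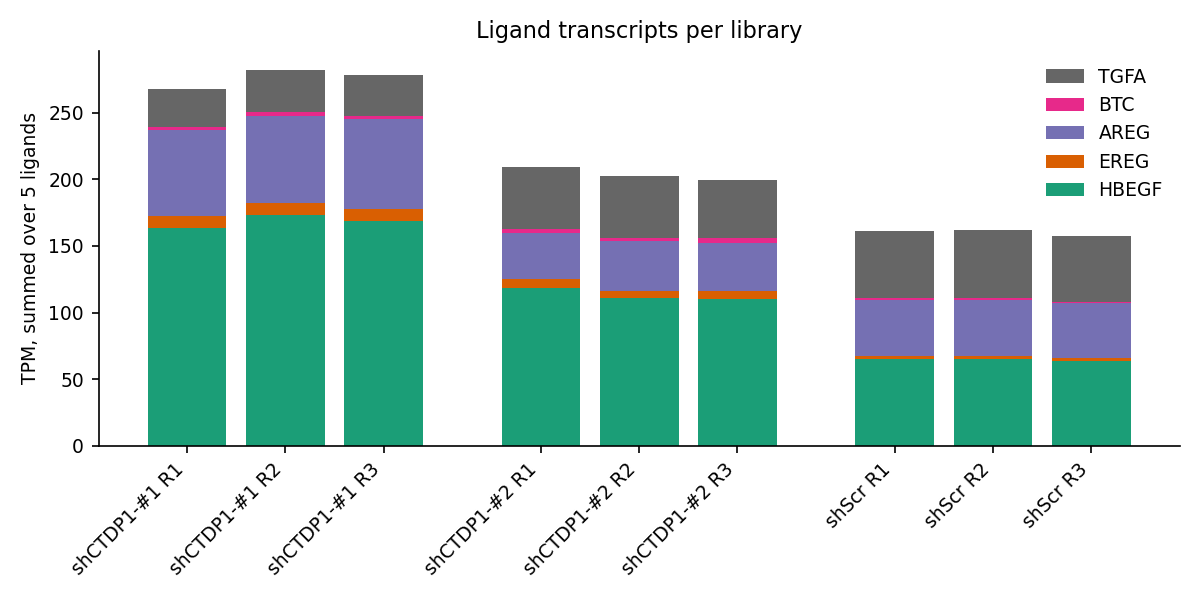
TPM of the 5 ligands stacked for each of the 9 libraries (linear axis from 0), in the order shCTDP1-#1, shCTDP1-#2, shScr. The HBEGF segment is the largest in every library and is taller with either CTDP1 hairpin than with shScr.

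The genes that act with these ligands were counted as a list of 19. Of these, 18 had an interval that overlapped the known position by at least 0.8 of the union, and 16 were tested. PHLDA1, listed as ERK feedback or output, was left out at 0.749, although its interval had the GENCODE v29 length and passed the filter. With shCTDP1-#1, 4 were higher, 4 lower and 8 were not called (median log2 change -0.03). With shCTDP1-#2, 2 were higher, 8 lower and 6 were not called (median -0.25). Over all tested intervals the calls made up 63.1% and 64%, so the share of the list that was called was no larger than that of all intervals. The other ligands were scarce: EGF had 0.94, 0.68 and 0.81 TPM with shCTDP1-#1, 2.57, 1.78 and 1.83 TPM with shCTDP1-#2, and 1.56, 1.08 and 1.39 TPM with shScr, and passed the test with neither hairpin (log2 change -0.37 with shCTDP1-#1 and 0.38 with shCTDP1-#2, adjusted p = 0.0675 and 0.0603). It passed with both when trend and robust were left out (adjusted p = 0.0256 and 0.0224), and with shCTDP1-#1 after median-of-ratios scaling (0.0457). EGF was higher with shCTDP1-#2 than with shCTDP1-#1 (log2 change 0.75, adjusted p = 0.00288). EPGN (epigen) had at most 0.2 TPM in 7 libraries, and 1.17 and 0.97 TPM in replicates 2 and 3 of shCTDP1-#2, and was not tested.

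EGFR, the receptor all 5 ligands bind, had 57.63, 60.28 and 81.64 TPM with shCTDP1-#1, 46.61, 48.86 and 57.75 TPM with shCTDP1-#2, and 45.28, 49.96 and 41.89 TPM with shScr. It rose by 0.52 on the log2 scale with shCTDP1-#1 (adjusted p = 0.00483), and changed by 0.15 with shCTDP1-#2, which did not pass (95% interval -0.13 to 0.44, adjusted p = 0.315). ERBB4 lay between 0.01 and 0.23 TPM, below the filter. RHBDF2, which encodes a partner of the sheddase ADAM17, was the only list member called in opposite directions (0.50 with shCTDP1-#1 and -0.50 with shCTDP1-#2). It was named after its values were seen, and 5.43% of all tested intervals were called in opposite directions.

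Of the list, 5 genes passed in the same direction with both hairpins, and 4 of them were lower; over all tested intervals 16.5% were lower and 26.4% higher with both. DUSP6, a phosphatase that ERK signalling induces and that acts back on ERK, had 221.67, 213.84 and 226.05 TPM with shCTDP1-#1, 358.06, 346 and 352.39 TPM with shCTDP1-#2, and 413.03, 423.61 and 415.97 TPM with shScr. It fell by 0.92 with shCTDP1-#1 and by 0.25 with shCTDP1-#2 (adjusted p = 5.48e-09 and 6.85e-05). The related phosphatase DUSP4 fell by 0.80 and 0.25 with the same hairpins. ERRFI1, an inhibitor of the EGF receptor kinase, fell by 0.37 and 0.52, and ETV4, a transcription factor downstream of ERK, fell by 0.15 and 0.81. SPRY4, another feedback inhibitor of the cascade, rose by 0.64 with shCTDP1-#1 and by 0.53 with shCTDP1-#2. All these directions are for RNA, and neither ligand release nor ERK activity was measured.

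**Figure D5:**
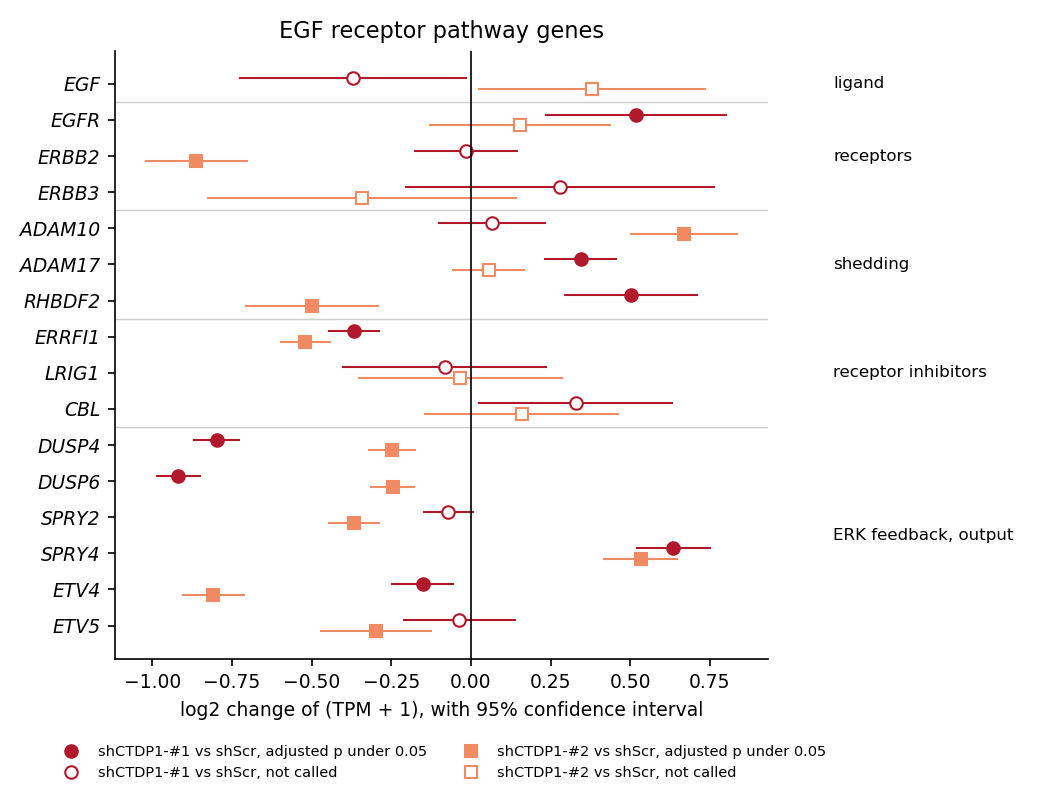
Log2 change of (TPM + 1), with its 95% confidence interval, of the 16 tested pathway genes for each CTDP1 hairpin against shScr; filled symbols passed an adjusted p of 0.05 and open symbols did not. DUSP6, DUSP4, ERRFI1 and ETV4 lie below 0 with both hairpins and SPRY4 above it.

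Genes beside the ligands did not all move with them. Within 500 kb of EREG lies AREG, whose values are given above. Of the 18 other intervals in that span, 4 were tested, and none was called higher with either hairpin. With each hairpin 3 were lower, though not the same 3. Within the same distance of HBEGF, 21 of 38 were tested. Of these, 9 were higher and 4 lower with shCTDP1-#1, and 12 were higher and 3 lower with shCTDP1-#2. Over all tested intervals, 35.4% were higher and 27.7% lower with shCTDP1-#1, and 39.5% were higher and 24.6% lower with shCTDP1-#2. Among 10995 intervals with a mean of at least 5 TPM, the one whose log2 levels followed EREG most closely over the 9 libraries was chr12:51454990-51477447 (Pearson r = 0.997). For AREG it was chr1:231376953-231413719 (r = 0.996), and for TGFA chr10:74092588-74114988 (r = 0.995). These values describe 9 libraries in 3 groups, and the search took the best of many.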

How the data were processed

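RNA-seq libraries of MDA-MB-231 cells (9, in 3 groups of 3) were analysed from the values the authors deposited, taken as TPM because each library sums to that unit's fixed total. The submitters' processing notes list STAR, RSEM and hg19; versions are not given in the sources used here. Depth is unknown, so no counting intervals are given. Rows sharing an interval (2246 of 57773) were left out. The files carry no gene names: the ligands were read by position (TGFA on a patch sequence), except BTC, found by its length on another patch sequence, and other genes where an interval overlapped a known hg19 position by at least 0.8 of the union (17 of 25 had the GENCODE v29 length). log2(TPM + 1) of intervals that reached 1 TPM in 3 or more libraries was fitted with limma 3.58.1 (trend, robust; R 4.3.3, statmod 1.5.0) on all 9 libraries, with Benjamini-Hochberg adjustment over 15011 intervals and a threshold of 0.05. The procedure was tested on simulated data with independent noise and few changed intervals, all in a single hairpin group. Most tested intervals were called against shScr here, so that test cannot show how reliable these calls are. Named were the ligands, EGFR, EGF, EPGN and pathway genes called alike with both hairpins; ERBB4 and RHBDF2 were named after their values were seen. Members and lists were chosen with earlier results of these data known. The labels do not state whether replicate libraries were separate cultures; p-values then reflect library-to-library spread alone, possibly technical.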

Additional observations from a re-analysis of the deposited data

Results flagged for a closer look

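The size of the change differed between the 2 hairpins, tested directly, for 4 ligands. With shCTDP1-#2 against shCTDP1-#1 the log2 change was -0.59 for EREG (limma adjusted p = 0.00101), -0.85 for AREG (adjusted p = 2.91e-07), -0.57 for HBEGF (adjusted p = 1.82e-06) and 0.56 for TGFA (adjusted p = 1.18e-05). AREG was higher than in shScr with shCTDP1-#1 and lower with shCTDP1-#2. CTDP1 averaged 3.76 TPM with shCTDP1-#2 and 2.51 TPM with shCTDP1-#1, and its part in these differences was not tested.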

How the results depend on the processing

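Under the alternatives run, every ligand kept its direction in every comparison. Of 288 ligand values, 270 also kept their side of the threshold and 18 did not. In many settings the log2 change could not move, so the direction was fixed. These were the filter, the replicate block, trend and robust, treat, and keeping rows that share an interval. Using only the groups compared, or leaving out a library of the third group, could not move it either. Adding the near-equal interval left the AREG values as they were. The BTC difference between the hairpins, which was not called, counts among the values kept. Tested with treat against a fold change of 1.5, which asks for a larger change, the calls of AREG (0.64), BTC (0.55) and TGFA (-0.70) with shCTDP1-#1 were lost, those of AREG (-0.21), BTC (0.77) and TGFA (-0.14) with shCTDP1-#2, and those of EREG (-0.59), HBEGF (-0.57) and TGFA (0.56) between the hairpins. Under treat, shCTDP1-#1 gave 1184 higher calls (873 lower), shCTDP1-#2 gave 1429 (576 lower), and the hairpin comparison 426 (237 lower). The TGFA call with shCTDP1-#2 (-0.14) was also lost with no filter on low values (adjusted p = 0.0684), without trend and robust (0.0522) and with a replicate block (0.0518); the cause was not tested. That block changed no other ligand call. Residuals of same-numbered libraries correlated between -0.0066 and 0.0535, and those of libraries with other numbers between -0.0465 and 0.0239. The main fit did not take the numbers as pairs, although 8 of 9 libraries correlated best with their own number. Whether the numbers mark pairs is unknown. Leaving out 1 library at a time gave log2 changes with shCTDP1-#1 of 1.62 to 1.74 for EREG, 0.62 to 0.65 for AREG, 0.45 to 0.64 for BTC, 1.35 to 1.39 for HBEGF, -0.74 to -0.66 for TGFA; with shCTDP1-#2 of 1.02 to 1.15 for EREG, -0.24 to -0.18 for AREG, 0.67 to 0.86 for BTC, 0.77 to 0.82 for HBEGF, -0.16 to -0.11 for TGFA; and between the hairpins of -0.66 to -0.54 for EREG, -0.87 to -0.82 for AREG, 0.16 to 0.29 for BTC, -0.60 to -0.55 for HBEGF, 0.53 to 0.60 for TGFA. Higher calls then numbered 4857 to 5316 for shCTDP1-#1, 5492 to 5911 for shCTDP1-#2 and 4037 to 4537 for the hairpin comparison; lower calls numbered 3828 to 4167, 3357 to 3696 and 2655 to 2983 in the same order. A group left with 2 libraries was assumed to vary like the others. The same alternatives for the pathway genes and CTDP1 were chosen after seeing the data. TPM holds no depth, so counting error at low levels, such as those of BTC and EREG, is unknown.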
